A study of Mus musculus with 8 samples.

Results

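Complexes III, IV and V of the mitochondrial respiratory chain were described here through their nuclear-encoded genes in mouse left ventricle. Members were all rows of the deposited count table whose symbol begins with Uqcr, Cox4, Cox5, Cox6, Cox7, Cox8 or Atp5, plus Cyc1, while Cycs and its relatives were left out. By this rule 47 of 41128 rows were members, 9 of complex III, 19 of complex IV and 19 of complex V. A mean of at least 10 normalized counts over the 8 samples was reached by 44 of them. Among these, 3 are second rows that carry the symbol of another member, which leaves 41 distinct genes on 18 chromosomes.

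The tested animals were 4 mice homozygous for a genome-edited deletion in exon 2 of Nppb, the gene for brain natriuretic peptide, and they were compared with 4 wild-type (WT) littermates. All 8 were of the FVB strain and aged 8 to 12 weeks, and the labels give neither their sex nor their litter. The labels also name mouse lines with a heart-muscle Cre and nuclear reporters but assign them to no sample here, and they record no drug or surgery. Total RNA of left ventricular tissue was sequenced, so cell types were not separated.

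Complex III passes electrons from ubiquinol to cytochrome c, complex IV passes them on to oxygen, and complex V uses the resulting proton gradient to make ATP. Each is assembled from proteins of both genomes: mitochondrial DNA encodes the cytochrome b of complex III, the catalytic core of complex IV and part of the membrane sector of complex V, and nuclear genes encode the rest. Heart muscle is among the tissues richest in these complexes. In complex IV several nuclear subunits come in a form typical of heart and skeletal muscle (Cox6a2, Cox7a1 and, in rodents, Cox8b) and a form present in most tissues (Cox6a1, Cox7a2, Cox8a).

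Some member rows belong to a near-identical copy of another member, and the stretches below show how alike the copies are. Gm10221, annotated as a processed pseudogene, is listed under the symbol Atp5l. Gm11273, annotated as protein-coding, is listed under the symbol Cox5b. Both stretches of each pair begin at the same codon, and capitals mark the bases at which the partners differ (GRCm38; gene and strand given with each name, 5′ to 3′).
Atp5l, gene at chr9:44912557-44920742, minus strand: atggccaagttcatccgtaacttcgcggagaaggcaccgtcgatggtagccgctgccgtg
Gm10221, gene at chr5:24581554-24581862, minus strand: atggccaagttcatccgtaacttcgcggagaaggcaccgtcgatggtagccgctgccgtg
Cox5b, gene at chr1:36691449-36693681, plus strand: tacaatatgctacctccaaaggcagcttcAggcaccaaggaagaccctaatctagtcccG
Gm11273, gene at chr13:21501029-21501418, minus strand: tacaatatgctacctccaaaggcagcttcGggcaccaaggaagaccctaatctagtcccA

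Gm10221 matched Atp5l over all 309 of its bases, and its row held 99.7% to 99.9% as many reads as the Atp5l row in every sample. Gm10175, annotated as a transcribed processed pseudogene and listed as Atp5g2, matched that gene over all 645 of its bases and held 99.4% to 100.3% as many reads. Gm11273 differed from Cox5b at 3 of 390 aligned bases and held 54.8% to 60.4% as many reads. How reads that fit both copies were counted is not stated. The values of these 6 rows are uncertain for this reason, and the second rows are left out of the gene counts and main medians below. They remain in the ratio of nuclear to mitochondrially encoded genes and in the complex medians under alternative settings. The isoform pairs are not alike in this way, since Cox6a2 and Cox6a1, Cox7a1 and Cox7a2, Cox8b and Cox8a, Cox4i2 and Cox4i1, and Atp5g1 and Atp5g3 share no run longer than 14 bases within a pair.

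The promoters of the muscle and widespread forms of complex IV subunits are shown because the isoform ratios described further on involve these genes. Each stretch is the 200 bases before the annotated start in RefSeq (GRCm38.p6), written 5′ to 3′ on the gene's strand. Capitals mark matches to the palindrome-like motif of nuclear respiratory factor 1 (NRF1) and to CCGGAAG, the motif of ETS factors such as GABP, on either strand. The RefSeq table used here has no entry for Cox6a2.
Cox6a1, chr5:115348959-115349158, minus strand: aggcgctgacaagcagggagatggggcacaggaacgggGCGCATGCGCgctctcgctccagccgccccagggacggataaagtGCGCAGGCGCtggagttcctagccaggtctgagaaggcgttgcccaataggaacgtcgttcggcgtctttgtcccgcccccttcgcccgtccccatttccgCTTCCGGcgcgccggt
Cox7a1, chr7:30183971-30184170, plus strand: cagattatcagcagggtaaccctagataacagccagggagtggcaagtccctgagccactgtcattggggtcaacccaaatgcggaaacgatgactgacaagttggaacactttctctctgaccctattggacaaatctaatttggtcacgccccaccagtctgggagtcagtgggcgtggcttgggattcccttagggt
Cox7a2, chr9:79759854-79760053, minus strand: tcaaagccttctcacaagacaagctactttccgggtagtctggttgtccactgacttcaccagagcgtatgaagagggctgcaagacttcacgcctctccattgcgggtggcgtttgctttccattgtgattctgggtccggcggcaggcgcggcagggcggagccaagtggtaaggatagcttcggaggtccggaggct
Cox8b, chr7:140900447-140900646, minus strand: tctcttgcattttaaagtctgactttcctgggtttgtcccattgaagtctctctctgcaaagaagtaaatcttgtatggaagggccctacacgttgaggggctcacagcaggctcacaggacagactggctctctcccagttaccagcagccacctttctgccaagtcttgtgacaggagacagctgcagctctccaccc
Cox8a, chr19:7217617-7217816, minus strand: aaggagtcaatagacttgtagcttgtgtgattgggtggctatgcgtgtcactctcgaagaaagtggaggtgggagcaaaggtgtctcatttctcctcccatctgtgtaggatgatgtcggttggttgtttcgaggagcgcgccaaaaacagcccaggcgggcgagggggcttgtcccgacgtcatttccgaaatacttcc

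Cox6a1 held NRF1 matches that begin at -162 and -117 and an ETS match at -16, counted from the start. Cox8b and Cox7a1, muscle forms, held neither motif, and nor did Cox7a2, a form of most tissues. Cox8a had an ETS match that begins at -5 and runs past the end of the stretch shown. In the full window of 250 bases before and 50 after the start, 32 of the 41 genes had an entry, and 8 of the 32 held the NRF1 motif, among them Uqcrc1, Atp5c1 and Atp5k. Over all protein-coding genes with an entry, 7.17% held it. The ETS motif lay in 10 of the 32, against 12.9% of coding genes. The motif of YY1, AAGATGGCG, lay in 3 of the 32 (Atp5j, Atp5j2 and Atp5sl), against 2.14%. AAGGTCA, the half-site of oestrogen-related receptors, lay in 4 of the 32, against 4.73%. The pattern searched for the muscle factor MEF2 fixed only its outer bases and accepted any base in its middle. This pattern lay in 1, Cox5b, against 4.01%, so both values hold for a loose form of the motif. TATAAA lay in 2, Cox8b and Atp5l, against 14.8%. Both strands were searched, a gene was counted once per motif, and none of these motifs contains another. A match describes letters only, and these shares were not tested.

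All 8 libraries held 20284865 to 34742840 reads assigned to genes, of which 15.6% to 17.9% came from mitochondrial genes. Nppb measured 1.54 to 4.13 normalized counts in the Nppb KO samples and 1840 to 4619 in the WT samples (limma adjusted p = 4.63e-05), so all libraries matched their labels at this gene. Cardiomyocyte markers were abundant in every sample, with summed counts of 1173669 to 1327307 in Nppb KO and 1261082 to 1375213 in WT over 8 markers, of which 0 passed the test. The 7 skeletal muscle markers summed to 6202 to 8415 in Nppb KO and 7299 to 7577 in WT, with 0 passing. Nearly all of that sum is Myh1 (4898 to 6649 in Nppb KO, 5597 to 5909 in WT) and Myh4 (1274 to 1737 and 1471 to 1781). Actn3 stayed at or below 26.0 in every sample, Tnnt3, Tnni2 and Mylpf at or below 13.7, and Pvalb at 0. Sums of smooth muscle markers were 4052 to 5353 in Nppb KO and 3044 to 4515 in WT, and those of fibroblast, endothelial, macrophage and erythroid markers overlapped as well, with 0 passing. The 5 atrial markers summed to 3630 to 3846 in Nppb KO and 354 to 669 in WT, without overlap. Nearly all of that sum is Nppa, which neighbours Nppb and passed the test, with 3603 to 3797 in Nppb KO and 327 to 628 in WT (limma adjusted p = 0.0189). Myl4 read 25.5 to 47.3 in Nppb KO and 21.3 to 39.2 in WT, and Myl7, Sln and Bmp10 stayed at or below 7.58 in every sample. The 5 brown fat markers summed to 192 to 231 in Nppb KO and 179 to 216 in WT, with 0 passing. Most of that sum is Cidea, with 184 to 225 in Nppb KO and 165 to 209 in WT, and Ucp1 stayed at or below 1.13. Adipoq read 0.772 to 4.09 in Nppb KO and 5.32 to 19.5 in WT, without overlap and lower in Nppb KO. Plin1 read 1.13 to 4.95 in Nppb KO and 0 to 18.4 in WT, with overlap. Adipoq and Plin1 were too low to be tested, and a difference in fat tissue between the samples was not tested. Levels are normalized counts, the authors' reads divided by a size factor for each sample, and levels of different genes are compared only after division by transcript length in kb.

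Per kb of transcript, the levels of the 41 genes spanned 129 to 35406 normalized counts. In complex V the catalytic beta subunit Atp5b was the highest at 35406 per kb, followed by the alpha subunit Atp5a1 at 28163 per kb. The peripheral stalk gene Atp5h had 15588 per kb, and the central stalk gene Atp5c1 had 11941 per kb. Atp5sl and Atp5s, at 302 and 140.4 per kb, were the lowest of the Atp5 genes. Despite its symbol Atp5sl is now known as Dmac2, a factor for complex I assembly, and Atp5s encodes coupling factor B.

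In complex IV the form of subunit 4 found in most tissues, Cox4i1, had 23375 per kb, and the muscle form Cox7a1 had 23091 per kb. The muscle forms Cox8b and Cox6a2 followed at 13584 and 13524 per kb. The forms present in most tissues were lower in these same ventricle samples, with Cox7a2 at 5885, Cox8a at 2225 and Cox6a1 at 1466 per kb. Cox4i2, the form of subunit 4 known from lung, was at 129 per kb. Complex III spanned the narrowest range, with levels of 2040.2 per kb (Uqcrq) to 13251 per kb (Uqcr11, a small subunit), and the core proteins Uqcrc1 and Uqcrc2 at 10043 and 7062 per kb. The mitochondrially encoded partner mt-Co1 reached 584872 per kb. The level of Atp5g1, 2860.4 per kb, rests on an annotated transcript of 4715 bases, far longer than those of the sister genes Atp5g2 and Atp5g3, with 731 and 723 bases. That of Uqcrq likewise rests on 1521 bases, against 434 for Uqcr10 and 445 for Uqcr11. Its place as the lowest of complex III depends on that length, since before division Uqcrq had 3103 normalized counts and Uqcr10 had 2754.

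**Figure D1:**
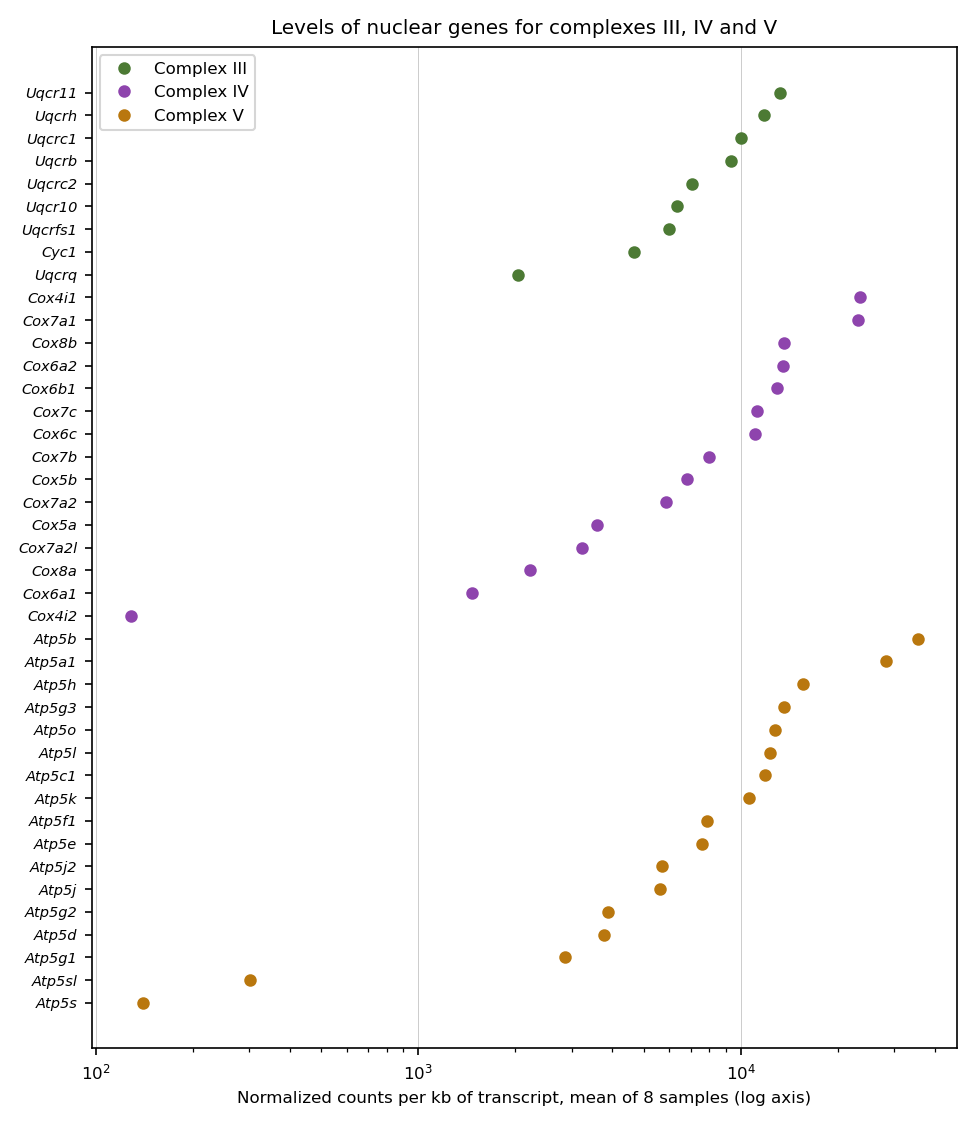
Level of each of the 41 genes in normalized counts per kb of transcript, mean of 8 samples, on a log axis, grouped by complex. Atp5b stands highest at 35406, Cox4i2 lowest at 129, and the muscle forms of complex IV lie above their counterparts.

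Members under a mean of 10 were 3 forms of complex IV subunits known from testis. Cox6b2 read 0 to 3.30 in Nppb KO and 2.17 to 9.31 in WT. Cox7b2 read 3.07 to 9.08 in Nppb KO and 0.981 to 5.32 in WT. Both ranges overlap, and at such counts the spread is mostly counting error. Cox8c had 0 reads in every sample, and a count of 0 allows up to 3 reads, or 2.29 to 3.99 normalized counts depending on the sample (counting error only).

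The comparison asks whether loss of Nppb changes these transcripts. Of the 41 genes, 0 differed between Nppb KO and WT ventricles after adjustment over all 16590 tested genes (limma on log2(normalized count + 1), Benjamini-Hochberg, threshold 0.05; lowest adjusted p 0.661). Over all genes 0.0121% passed. EdgeR on the recovered reads and DESeq2 on the same reads also called 0 of the 41, against 0.0121% and 0.139% of all 16590 genes. The authors' deposited table holds no member past 0.05, against 0.37% of the 5939 genes given an adjusted p there. DESeq2 and the authors' table gave no adjusted p for Cox4i2 and Atp5s. The share of 0.139% counts genes without an adjusted p as not called, so it is not directly comparable with 0.37%. By estimate 14 genes were higher and 27 lower in Nppb KO, with log2 differences (Nppb KO minus WT) of -0.14 to 0.13 and a median of -0.02. Over all tested genes the median was 0.002, and 49.1% were below 0. The 95% interval of the difference lay within 1.2-fold in both directions for 40 of the 41 genes, Cox4i2 being the exception with an interval of -0.28 to 0.23.

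At an unadjusted p under 0.05 in limma, 1 of the 41 genes was higher (Cox6a1) and 2 were lower (Cox6a2 and Atp5j), where 2.98% and 3.29% of all genes were (6.26% in either direction). The groups did not overlap for 2 of the 41, both lower in Nppb KO (Cox6a2 and Cyc1), where 1.74% of all genes were lower without overlap. None was higher without overlap, where 2.03% of all genes were (3.76% in either direction). The tissue is bulk, so fewer cells of a type and less RNA per cell cannot be told apart.

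**Figure D2:**
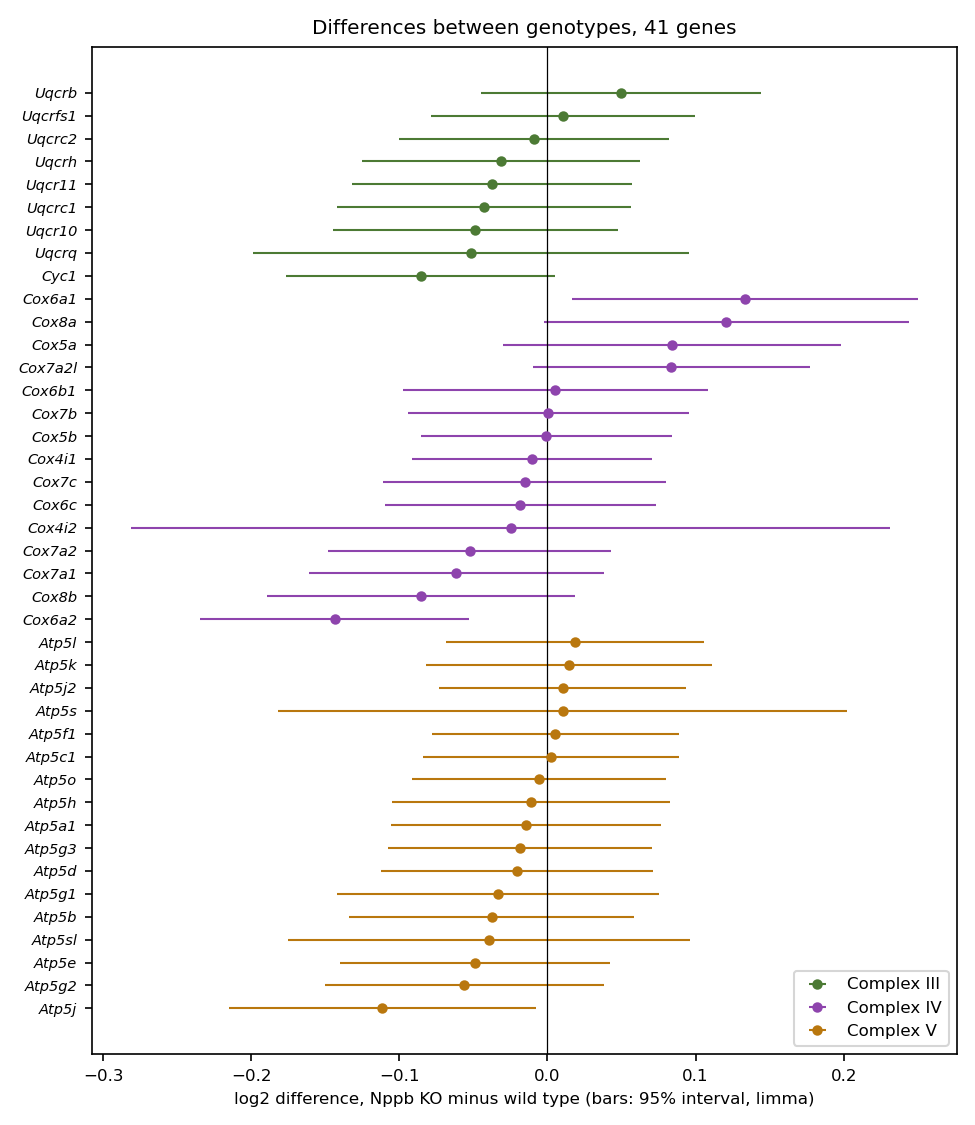
Log2 difference (Nppb KO minus WT) of each of the 41 genes, with its 95% interval from limma, grouped by complex and ordered by the difference. Points run from -0.14 (Cox6a2) to 0.13 (Cox6a1), and 40 of 41 intervals lie within 1.2-fold.

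Complex III held 2 genes above 0 and 7 below, with a median log2 difference of -0.04. Cyc1, the cytochrome c1 that hands electrons to cytochrome c (chromosome 15, 76343523 to 76346260, plus strand), measured 6426, 7044, 6917 and 7141 normalized counts in Nppb KO replicates 1 to 4, against 7146, 7288, 7388 and 7366 in WT replicates 1 to 4. Every Nppb KO sample was below every WT sample, the nearest pair nearly touching, and Nppb KO replicate 1 was the lowest. The log2 difference was -0.09 (SE 0.04; limma adjusted p = 0.796), and without Nppb KO replicate 1 it was -0.05 (limma adjusted p = 0.833). Uqcrb, a subunit near the ubiquinone site, had the highest estimate, with 5013, 5084, 4799.8 and 5379.7 in Nppb KO, against 4728, 4870.2, 5084 and 4898 in WT. Its groups overlapped (log2 difference 0.05, SE 0.04).

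Uqcr11 measured 5802, 5893, 5891 and 5683 in Nppb KO, against 5515, 6097, 6202 and 6089.9 in WT, where replicate 1 was below all Nppb KO samples and the other 3 were above them. Uqcrfs1, the Rieske iron-sulfur protein, had a log2 difference of 0.01, and the core proteins Uqcrc1 and Uqcrc2 had -0.04 and -0.01. The hinge protein gene Uqcrh had -0.03, and Uqcr10 and Uqcrq each had -0.05. The standard errors of these lay between 0.04 and 0.07.

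Complex IV spread the widest, with 6 genes above 0 and 9 below and a median of -0.01. Both ends of its range belong to subunit 6a. Cox6a2, the muscle form (chromosome 7, 128205435 to 128206387, minus strand), measured 8648, 9019, 8563 and 8713 normalized counts in Nppb KO, against 9318, 9258, 10134 and 9916 in WT. The groups were apart, with Nppb KO 9.48% lower by estimate (log2 difference -0.14, SE 0.04; limma adjusted p = 0.661). Its p ranked 100 among the 16590 genes. DESeq2 gave an adjusted p of 0.203 on the recovered reads, and the authors' deposited table lists 0.108. Without WT replicate 3, the highest sample, the difference was -0.12 (limma adjusted p = 0.904).

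Cox6a1, the form of most tissues (chromosome 5, 115345642 to 115348981, minus strand), measured 830.4, 910.3, 868 and 893 in Nppb KO, against 773, 864, 777 and 779 in WT. WT replicate 2 lay inside the Nppb KO range and the other 3 WT samples below it. The log2 difference was 0.13 (SE 0.06; limma adjusted p = 0.753).

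The subunit 8 forms lay in the same order. Cox8b, the muscle form (chromosome 7, 140898945 to 140900446, minus strand), measured 4751, 4746, 4730.3 and 4736 in Nppb KO, against 4602, 5144, 5471 and 4941 in WT. The Nppb KO samples were nearly equal (SD 9.39, n = 4, against 365 in WT, n = 4), while WT samples lay on both sides of them (log2 difference -0.09, SE 0.05; limma adjusted p = 0.808). Counting error alone is larger than 9.39 at such counts, so this closeness does not show that the animals were alike. The difference in spread was not tested. Without WT replicate 3 the difference was -0.04, and without WT replicate 1 it was -0.13 (limma adjusted p = 0.929 and 0.729). Cox8a (chromosome 19, 7215153 to 7217616, minus strand) measured 1209, 1243, 1291 and 1354 in Nppb KO, against 1154, 1302, 1146 and 1092 in WT. Only WT replicate 2 reached the Nppb KO range (log2 difference 0.12, SE 0.06; limma adjusted p = 0.796).

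Subunit 7a did not follow that order. Cox7a1, the muscle form, measured 9383, 8407, 8725 and 9009 in Nppb KO, against 9074, 9458, 9771 and 8771 in WT (log2 difference -0.06, SE 0.05). Cox7a2 measured 3936, 3937, 3633 and 3726 in Nppb KO, against 3727, 4023, 4070.3 and 3975 in WT (-0.05, SE 0.05). Both overlapped between genotypes, and both estimates were below 0. The Cox7a1 difference was -0.04 without Nppb KO replicate 2 and also -0.04 without WT replicate 3.

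The forms of subunit 4 overlapped between genotypes. Cox4i1 (chromosome 8) measured 18174, 17727, 17704 and 17659.6 in Nppb KO, against 17676, 17815, 18472 and 17831 in WT (log2 difference -0.01, SE 0.04), with Nppb KO replicate 1 above the other Nppb KO samples. Cox4i2 read 84.2, 100.4, 94.0 and 95.7 in Nppb KO, against 87.0, 88.3, 101 and 105 in WT (-0.02, SE 0.12), the widest error of the 41 genes. Of the others, Cox5a and Cox7a2l each had 0.08, and Cox7a2l encodes a factor that joins complexes III and IV rather than a fixed subunit. Cox5b, Cox6b1, Cox6c, Cox7b and Cox7c lay between -0.02 and 0.01.

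**Figure D3:**
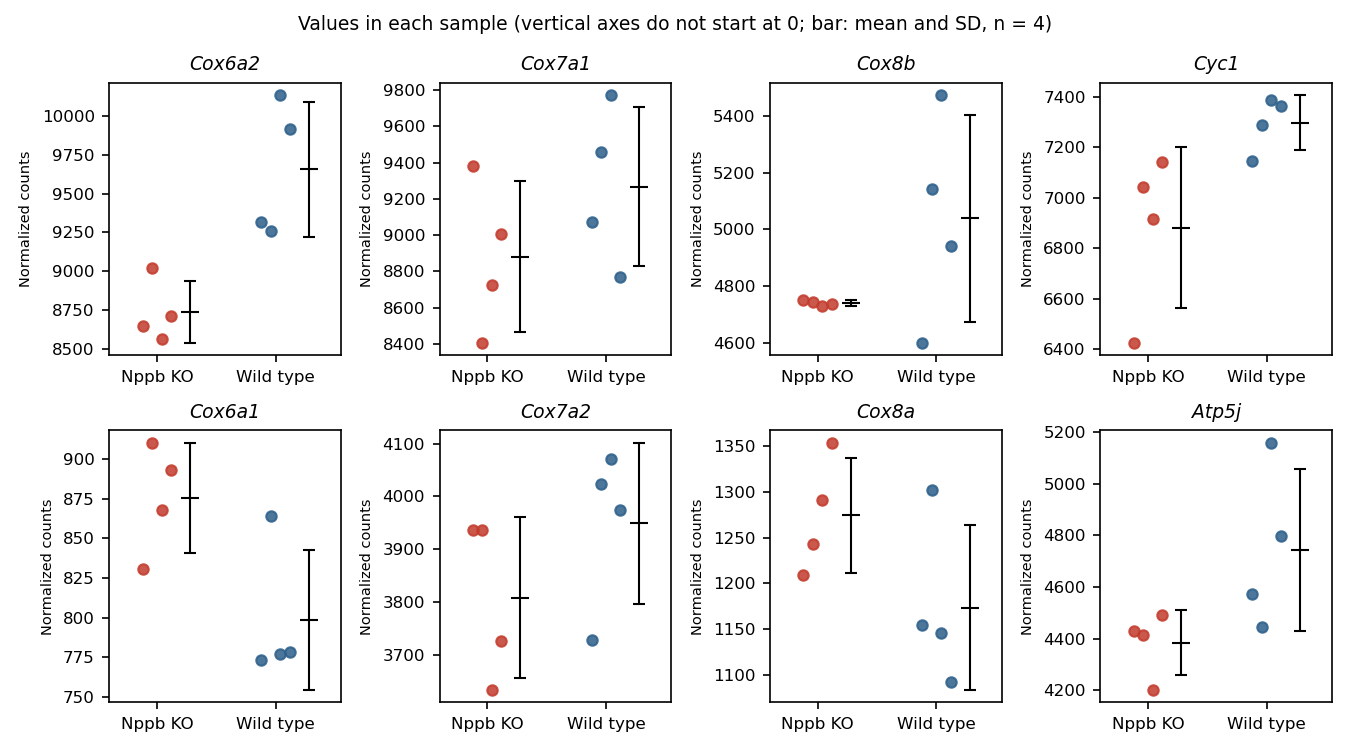
Normalized counts in each of the 4 Nppb KO and 4 WT samples for Cox6a2, Cox7a1, Cox8b, Cyc1, Cox6a1, Cox7a2, Cox8a and Atp5j, with the mean and SD (n = 4 each) as bars. The axes do not start at 0. Cox6a2 and Cyc1 show no overlap, and WT replicate 2 of Cox6a1 lies among the Nppb KO values.

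Complex V held 6 genes above 0 and 11 below, with a median of -0.01. Atp5j, coupling factor 6 of the peripheral stalk (chromosome 16, 84827866 to 84835625, minus strand), had the lowest estimate, with 4430.0, 4416, 4201 and 4492 in Nppb KO, against 4573, 4444, 5159 and 4796 in WT. Only WT replicate 2 was inside the Nppb KO range (log2 difference -0.11, SE 0.05; limma adjusted p = 0.769). Without WT replicate 3 its difference was -0.07 (limma adjusted p = 0.91). Atp5b measured 69372, 66339, 65334 and 66657 in Nppb KO, against 67215, 64959.6, 73254 and 69578 in WT. The ranges overlapped (-0.04, SE 0.05).

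The membrane subunit c is made from 3 genes with different import sequences and the same mature protein. Atp5g1 measured 12752, 13658, 13421 and 13442 in Nppb KO, against 12312, 14279, 14591 and 13439 in WT (-0.03, SE 0.05). Atp5g3 measured 9403, 9924, 9799.8 and 9934 in Nppb KO, against 10038, 9417, 10314 and 9816 in WT (-0.02, SE 0.04). For both genes the WT samples spread wider than the Nppb KO samples, and the ranges overlapped. The difference in spread was not tested.

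Atp5l, subunit g, had the highest estimate of the complex, 0.02 (SE 0.04), with 6862, 6681, 6671 and 6881 in Nppb KO, against 6639, 6549.8, 7064 and 6505 in WT. The rest of the catalytic head and stalks (Atp5a1, Atp5c1, Atp5d, Atp5e, Atp5f1, Atp5h and Atp5o) lay between -0.05 and 0.01, and the membrane subunits Atp5j2 and Atp5k at 0.01 each. Atp5g2 had -0.06, Atp5sl -0.04 and Atp5s 0.01.

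Ratios within a sample do not depend on its size factor, and 6 were formed. The log2 ratio of Cox6a2 over Cox6a1 was 3.38, 3.31, 3.30 and 3.29 in Nppb KO, against 3.59, 3.42, 3.70 and 3.67 in WT. The groups were apart, with means of 3.32 ± 0.04 in Nppb KO and 3.60 ± 0.13 in WT (SD, n = 4 each), a difference of -0.28 or a ratio 17.5% lower. The two-sided exact permutation test gave p = 0.0286, the smallest that 4 against 4 allows, and 0.0857 after adjustment over the 6 ratios. Weighted by transcript length, Cox6a2 made up 89.1% to 89.7% of the pair in Nppb KO and 90.0% to 91.6% in WT.

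Cox8b over Cox8a was 1.97, 1.93, 1.87 and 1.81 on the log2 scale in Nppb KO, against 2.00, 1.98, 2.26 and 2.18 in WT. These groups were also apart, narrowly so between Nppb KO replicate 1 and WT replicate 2. The means were 1.90 ± 0.07 in Nppb KO and 2.10 ± 0.14 in WT (SD, n = 4 each), a difference of -0.21 or a ratio 13.3% lower (exact permutation p = 0.0286, adjusted p = 0.0857). Both ratios were lower in all 4 Nppb KO samples, and neither passed 0.05 after adjustment. With 2 of the 6 ratios at the smallest possible exact p, the adjusted p is 0.0857, so these 2 alone could not pass. Without any 1 sample the smallest possible exact p is 0.0571, so no ratio can then pass. Without WT replicate 3 the differences were -0.24 for subunit 6a and -0.16 for subunit 8.

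Cox7a1 over Cox7a2 averaged 1.22 ± 0.09 in Nppb KO and 1.23 ± 0.06 in WT (SD, n = 4 each; exact permutation p = 0.8). Cox4i2 over Cox4i1 averaged -7.58 ± 0.13 in Nppb KO and -7.56 ± 0.12 in WT (p = 0.857 by the same exact test). Atp5g1 over Atp5g3 averaged 0.45 ± 0.01 in Nppb KO and 0.46 ± 0.13 in WT (exact p = 0.8). The groups overlapped for all of these ratios. The SD of 0.01 for Atp5g1 over Atp5g3 in Nppb KO is smaller than counting error alone, and spreads were not tested. The nuclear members, second rows included, were summed and set over the 6 mitochondrially encoded subunits. This log2 ratio was -2.01 to -1.87 in Nppb KO and -2.02 to -1.93 in WT, also with overlap. Its difference (Nppb KO minus WT) was 0.030 with the second rows and 0.029 without them.

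**Figure D4:**
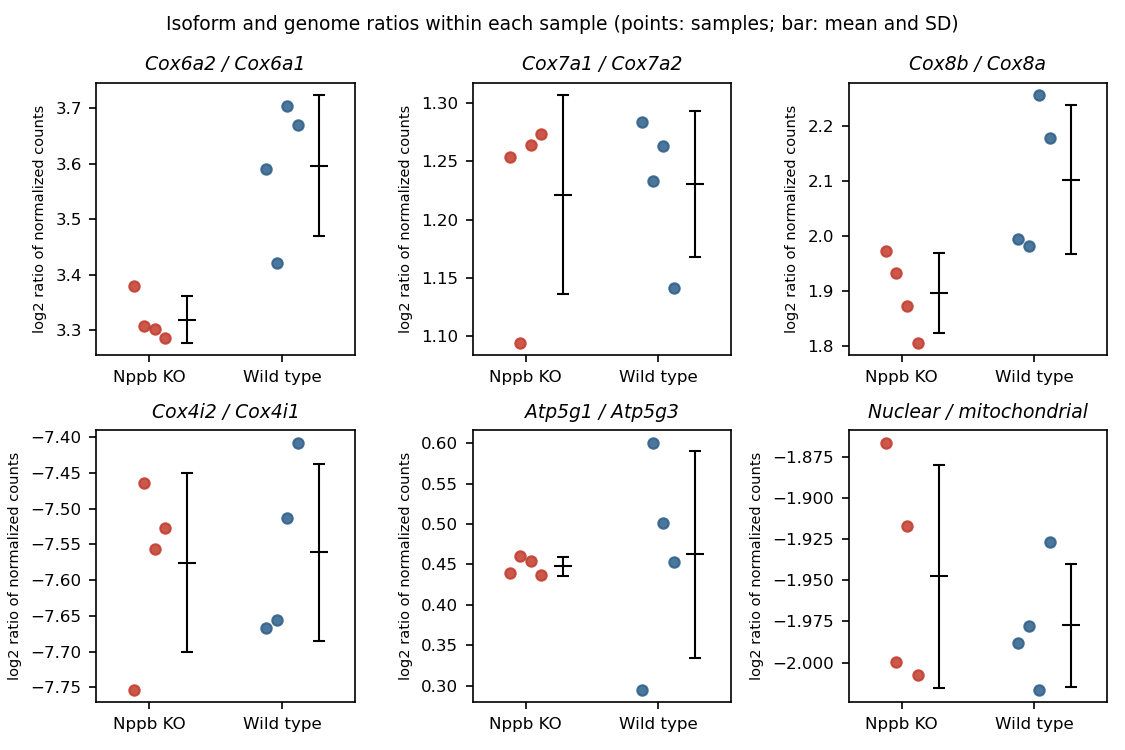
Log2 ratio of normalized counts within each sample for 5 isoform pairs and for summed nuclear over mitochondrially encoded genes, with the mean and SD of 4 Nppb KO and 4 WT samples. For Cox6a2 over Cox6a1 and Cox8b over Cox8a the Nppb KO points lie below all WT points, and elsewhere the groups overlap.

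Medians over a complex spread wider among the WT samples than between the genotypes. WT replicate 3 was the highest of the 8 samples for 26 of the 41 genes (5 of complex III, 7 of complex IV and 14 of complex V) and the lowest for 0. Over all tested genes it was the highest for 14.9%. Relative to the WT mean, the median over the 17 genes of complex V was 0.07 in this sample and between -0.03 and 0.01 in the other 7. Nppb KO replicate 3 was the lowest for 10 of the 41 genes and WT replicate 1 for 9. Over all tested genes these samples were the lowest for 11.1% and 9.64%.

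The same 2 samples stood at the ends of other measures. WT replicate 3 had the highest cardiomyocyte marker sum, 1375213, the highest mitochondrial share, 17.9%, and the lowest depth, and Nppb KO replicate 3 had the lowest marker sum, 1173669, and the lowest mitochondrial share, 15.6%. The part of these in the members' levels was not tested. Without WT replicate 3 the median differences, second rows included, were -0.01 for complex III, 0.004 for complex IV and 0.009 for complex V. The medians of complexes IV and V thus changed sign without that sample, and 1 in place of 3 members was at an unadjusted p under 0.05.

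**Figure D5:**
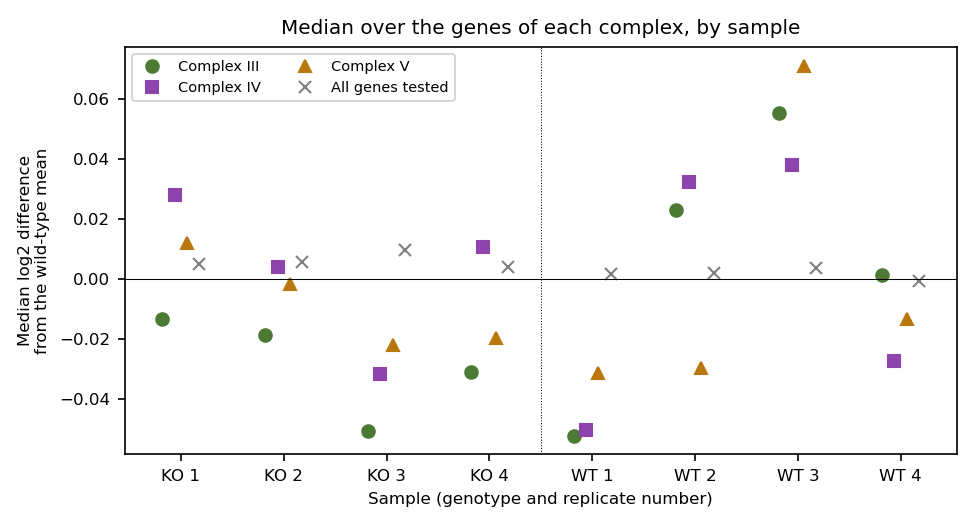
Median over the genes of each complex of the log2 difference from the WT mean, by sample, with the median over all tested genes as crosses. WT replicate 3 is highest for all 3 complexes, and the Nppb KO samples lie within the range of the WT samples for all 3 complexes.

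Genes that work with these subunits were read from 6 lists of 57 genes, of which 54 were tested and 0 passed (limma, adjusted over all genes; 3 higher and 1 lower at an unadjusted p under 0.05). Over all genes 0.0121% passed, and 2.98% were higher and 3.29% lower at an unadjusted p under 0.05. All 6 mitochondrially encoded subunits of complexes III to V were lower by estimate, with a median of -0.10, where 49.1% of all genes were below 0. At an unadjusted p under 0.05 in limma there were 0 of them. mt-Cytb, the cytochrome b of complex III, had 83630.5, 93585, 83596 and 103248 normalized counts in Nppb KO, against 99772, 103059, 107347 and 92132 in WT (log2 difference -0.15, SE 0.07; limma adjusted p = 0.796). Nppb KO replicates 2 and 4 lay among the WT values.

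All 6 assembly factors of complex III were higher by estimate, with a median of 0.04, where 49.1% of all genes were below 0. Only Uqcc3 had an unadjusted p under 0.05 in limma. The other estimates ran from 0.005 (Uqcc2, SE 0.06) to 0.06 (Ttc19, SE 0.06). Uqcc3, which stabilises newly made cytochrome b, measured 353, 366, 392 and 353 in Nppb KO, against 333, 348, 287 and 331 in WT. The groups were narrowly apart (0.17, SE 0.08; limma adjusted p = 0.768). Of the complex IV assembly factors 22 of 25 were tested, with 14 above 0 and 8 below. The smallest p among them belonged to Cox18, an inserter of the second catalytic subunit (0.16, SE 0.09). Of 5 complex V assembly factors 3 were above 0, and Fmc1 had the smallest p (-0.12, SE 0.07).

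Atpif1, which inhibits ATP hydrolysis by complex V, measured 729.7, 742, 765 and 837 in Nppb KO, against 679, 721, 696 and 682 in WT. Its groups were apart (0.14, SE 0.06; limma adjusted p = 0.753). Hccs, which attaches heme to cytochromes c and c1, measured 1007, 1082, 986 and 1069 in Nppb KO, against 886, 1059.6, 845 and 934 in WT, and only WT replicate 2 reached the Nppb KO range (0.16, SE 0.07; limma adjusted p = 0.753). Cytochrome c itself, Cycs, had 0.03 (SE 0.05).

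Among 9 regulators of nuclear respiratory genes, Ppargc1a, the coactivator PGC-1alpha, had 2045, 1868, 1779 and 2509.6 in Nppb KO, against 3260.0, 2604, 2580.0 and 3049 in WT. The groups were apart (-0.49, SE 0.12; limma adjusted p = 0.661, DESeq2 adjusted p = 0.00359). Of the factors whose motifs were searched above, those on the list did not pass in limma. The estimates were -0.07 for Nrf1 (SE 0.07), 0.01 for Gabpa (SE 0.05), -0.08 for Yy1 (SE 0.07) and 0.05 for Esrra (SE 0.04). Gabpb1, the other GABP gene on the list, had the highest estimate of the 9 regulators, 0.23 (SE 0.12; limma adjusted p = 0.800). The list held no MEF2 gene.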

How the data were processed

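Total RNA (900 ng per sample) was made into stranded libraries and sequenced as paired 125 bp reads, per the labels' protocols. The authors deposited normalized counts per gene, a signal never below 0. Per the submitters' processing notes, the tools were STAR and DESeq2 with build mm10. Counter, annotation and strand handling were not given in the sources used here. In addition, the authors deposited a comparison with log2 fold changes (wild type over knockout) and p-values. Dividing by the worth of 1 read gave whole reads within 0.01 for 100% of values.

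Members and lists were chosen with earlier results of these data known. Groups and replicate numbers came from the titles. limma 3.58.1 (trend, robust; R 4.3.3) was fitted to log2(normalized count + 1) for 16590 genes with a mean of at least 10, a scale that understates changes of low genes. Values in every sample are given for members of the isoform ratios, the extremes of each complex in level, difference and p, and members without overlap. Listed genes were named for an unadjusted p under 0.05 or the smallest p of their list. Other context genes were named after their values were seen. Per-sample ratios were tested by exact two-sided permutation over 70 assignments (SciPy 1.17.1).

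Annotation was GENCODE M21 (GRCm38). Transcript lengths are those of principal transcripts. Replicates were not copies of each other (chi-square per degree of freedom at least 4.88). Alternatives changed the pseudocount, low-value filter, normalization (TMM, quantile), test (edgeR 4.0.16, DESeq2 1.42.0), replicate block and each sample in turn. The scripts were tested on simulated data. The limma p-values set the difference between genotypes against the spread between samples within a genotype, moderated over all tested genes. Exact p-values come from relabelling these 8 samples. The depth limits precision mainly for low genes, and the reads carry no molecular identifiers.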

Additional observations from a re-analysis of the deposited data

Results flagged for a closer look

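Of 44 groups of 4 values looked at, 4 held a sample far from the other 3 when its gap to the nearest is set against the range (Dixon's 95% value); chance gives about 1 in 20 groups. Cox4i1 was highest in Nppb KO replicate 1 (18174 against 17659.6 to 17727 normalized counts; gap 0.870). The log2 ratio of Cox7a1 over Cox7a2 was lowest in Nppb KO replicate 2 (1.09 against 1.25 to 1.27; gap 0.886). Cox6a1 was highest in WT replicate 2 (864 against 773 to 779; gap 0.943). Uqcr11 was lowest in WT replicate 1 (5515 against 6089.9 to 6202; gap 0.837).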

How the results depend on the processing

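The count of members past the adjusted threshold was 0 in all 17 alternatives, and Cox6a2, Cox6a1, Atp5j, Cyc1, Cox8a, Cox8b and Cox7a1 kept their direction in 17 alternatives each. The count at an unadjusted p under 0.05 was 3 and ran from 1 to 5 when single samples were left out (1 without Nppb KO replicate 2, WT replicate 3 or WT replicate 4, and 5 without WT replicate 2). Genotype differences near 0 in log2 ratios (Nppb KO minus WT) changed sign without single samples: Cox7a1 over Cox7a2 to 0.0332, 0.0086 and 0.0018 (without Nppb KO replicate 2, WT replicate 1 and WT replicate 3; lowest of all -0.0387), Cox4i2 over Cox4i1 to 0.0449, 0.0015 and 0.0367 (without Nppb KO replicate 1, WT replicate 3 and WT replicate 4; lowest -0.0516), and Atp5g1 over Atp5g3 to 0.0315 (without WT replicate 2; lowest -0.0706). Cox6a2 over Cox6a1 stayed at -0.34 to -0.24, and Cox8b over Cox8a at -0.25 to -0.16. With quantile normalization the complex IV and V medians were 0.0006 and 0.01, and without Nppb KO replicate 3 the complex IV median was 0.005. These medians include the second rows. Leaving out the second rows, a choice made after seeing the data, gave medians of -0.01 for complexes IV and V, the values given in the results above.

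Replicate numbers are not stated to pair the samples. After each gene's group mean was subtracted, same-numbered samples correlated at -0.069 to 0.026 over genes. Differently numbered samples correlated at -0.213 to 0.158. With no litter in the labels, these values cannot show whether the numbers mark pairs. With the replicate number as a block 0 members passed, 2 were at an unadjusted p under 0.05, and Cox6a2 had a limma adjusted p of 0.834. Sign flips over 4 pairs cannot go below an exact p of 0.125. Depth limits Cox4i2, Cox6b2, Cox7b2 and Cox8c.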
